A study of Mus musculus with 11 samples.

Results

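The kainate receptor subunits are the products of Grik1, Grik2, Grik3, Grik4 and Grik5. All 5 genes were found by symbol in the deposited table of 30681 genes, in all 11 hippocampal libraries, and all 5 passed the filter on low counts that kept 16587 genes. The study set 6 libraries from mice with a conditional knockout (cKO) of Dclk3, a doublecortin-like kinase, against 5 libraries from wild-type (WT) mice, all at 6 months of age. Each library held polyadenylated RNA of 1 hippocampus, and its total count was between 24001828 and 35674490. The sources used here do not give the strain, the recombinase line that limits the deletion to some cells, or the deleted part of Dclk3. The WT samples are titled as the controls of the conditional knockout, and the labels do not say which alleles or recombinase they carry. Nor do they state whether each library stands for another animal, so the spread behind the p-values is that of these samples and may be technical.

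Dclk3 itself had 20.1 ± 3.44 CPM (read counts scaled to library size) in the cKO-labelled libraries and 22.4 ± 3.31 CPM in WT (SD over 6 and 5 libraries). On the log2 scale the difference was -0.15 ± 0.12 (SE; edgeR, adjusted p = 0.727), so the targeted gene did not pass the test and the group is called by its label below. The count covers the whole gene, and how much of it falls in the deleted part is not known here. By Xist and the Y-linked genes, all 6 cKO-labelled libraries were male, whereas WT held 2 male libraries (replicates 2 and 5) and 3 female ones. Of 67 marker genes for the cell types of the hippocampus and its neighbours, 0 were at a count of 0 in every library. The principal neuron markers, among them Slc17a7, the vesicular glutamate transporter of excitatory neurons, summed to 2063 to 2480 CPM in the cKO-labelled libraries and 1996 to 2142 CPM in WT.

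Kainate receptors are glutamate-gated cation channels built from 4 subunits. GluK1, GluK2 and GluK3, encoded by Grik1 to Grik3, can form channels by themselves. GluK4 and GluK5, encoded by Grik4 and Grik5, bind glutamate with higher affinity and reach the synapse in channels shared with the first group. In the hippocampus these receptors are best known from the synapses of mossy fibres on CA3 pyramidal cells, where they act on both sides of the synapse, and from interneurons. Auxiliary Neto proteins slow their gating. In bulk tissue, fewer cells of a type and less RNA per cell cannot be told apart.

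The subunits differ in the pore loop, and the coding stretch that holds the Q/R site, the codon at which RNA editing of Grik1 and Grik2 exchanges a glutamine for an arginine, is shown for all 5 because it sets the editable pair of transcripts beside the others. Each line gives 72 bases, 5′ to 3′, from the longest coding GENCODE M21 transcript that holds the loop, with the Q/R codon in capitals.
Grik1: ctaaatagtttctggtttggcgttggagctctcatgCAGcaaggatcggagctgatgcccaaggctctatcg
Grik2: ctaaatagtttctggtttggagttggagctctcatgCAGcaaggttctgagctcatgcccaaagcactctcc
Grik3: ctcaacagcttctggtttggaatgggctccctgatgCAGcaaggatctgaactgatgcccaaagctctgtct
Grik4: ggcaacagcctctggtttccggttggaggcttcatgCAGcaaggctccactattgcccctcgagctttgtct
Grik5: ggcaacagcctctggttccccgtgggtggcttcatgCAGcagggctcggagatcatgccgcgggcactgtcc

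The stretch was located by its conserved protein motif, glutamine included, and in all 5 annotated transcripts that glutamine is written CAG. The lines of Grik1, Grik2 and Grik3 are joined across an intron. Over 150 bases from the start of these lines to the end of the conserved motif in the next membrane segment, Grik4 and Grik5 were 84.0% identical, and Grik1 was 84.7% identical to Grik2 and 82.0% identical to Grik3, and Grik2 and Grik3 were 76.7% identical. Between the groups, identity was from 63.3% for Grik2 with Grik4 to 74.0% for Grik3 with Grik5. The codons lie on mm10 at chromosome 16, 87940542 to 87940544 (Grik1, minus strand), chromosome 10, 49244329 to 49244331 (Grik2, minus strand), chromosome 4, 125691207 to 125691209 (Grik3, plus strand), chromosome 9, 42547623 to 42547625 (Grik4, minus strand), and chromosome 7, 25022497 to 25022499 (Grik5, minus strand). The deposited values are 1 count per gene, so neither editing nor splice forms were measured here. The count of Grik4 (ENSMUSG00000032017) could share reads with Gm24420 over 59 of its 5962 exon bases. The exons of the other 4 genes share no base with the exons of another annotated gene.

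The level per length set the subunits far apart. Over the 11 libraries Grik5 averaged 52.9 ± 2.30 CPM per kilobase of exon (SD, n = 11), Grik4 10.99 ± 1.10, Grik3 4.55 ± 0.945, Grik2 3.66 ± 0.163 and Grik1 1.55 ± 0.238 CPM per kilobase. By exon length, the mean of Grik5 was 4.81 times that of Grik4 and 34.2 times that of Grik1. In every library Grik5 stood above Grik4, Grik4 above Grik3 and Grik2 above Grik1, with no overlap between the ranges of these neighbours. Grik3 and Grik2 overlapped, since Grik3 was the higher of the pair in 10 of 11 libraries, with the ratio running from 0.959 to 1.96. Their order depended on the length used: per kilobase of the longest transcript Grik2 averaged 5.15 and Grik3 4.55 CPM, and Grik2 was the higher in 9 of 11 libraries. Grik1 averaged 2.85 CPM on that scale and came within the range of Grik3. There the mean of Grik5 was 6.05 times that of Grik4 and 23.7 times that of Grik1.

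**Figure D1:**
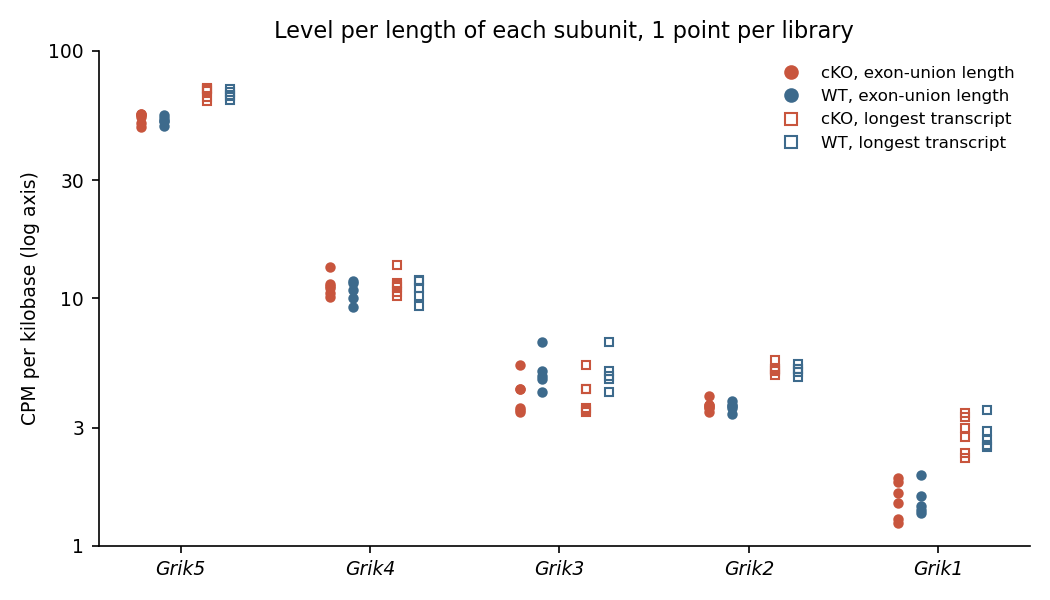
Level of each kainate receptor subunit in CPM per kilobase, on a log axis, with 1 point per library; cKO-labelled libraries are left of WT. Filled circles use the length of all annotated exons, where Grik5 averages 52.9 and Grik1 1.55, and open squares the longest transcript, where Grik2 stands above Grik3 in 9 of 11 libraries.

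By the exon length, Grik5 made up 72.1 ± 1.90% of the family's summed level in the cKO-labelled libraries and 71.4 ± 1.22% in WT (SD over 6 and 5 libraries). The share of Grik4 was 15.2 ± 1.40% in the cKO-labelled libraries and 14.6 ± 1.34% in WT. Grik3 held 5.56 ± 1.02% in the cKO-labelled libraries and 6.94 ± 1.20% in WT, and the ranges of 4.51 to 7.13% and 5.48 to 8.82% overlapped. The family summed to 73.9 ± 2.38 CPM per kilobase in the cKO-labelled libraries and 73.4 ± 2.59 in WT. Beside it the 4 AMPA receptor subunits, which carry most fast excitatory transmission, summed to 231 ± 8.10 CPM per kilobase in the cKO-labelled libraries and 229 ± 11.1 in WT. The 7 NMDA receptor subunits, the coincidence detectors of synaptic plasticity, summed to 97.0 ± 3.54 CPM per kilobase in the cKO-labelled libraries and 97.1 ± 3.63 in WT.

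The comparison of the genotypes asked whether any subunit differed between the cKO-labelled libraries and WT. None of the 5 passed edgeR's quasi-likelihood test, which called 0% of the 16587 genes tested in either direction, and none was among the 0.374% of genes called by DESeq2 (0.181% higher and 0.193% lower). At an unadjusted p under 0.05 edgeR had 1 of the 5, Grik3, lower in the cKO-labelled libraries, where 5.35% of all genes were lower and 3.84% higher by that mark (9.19% in either direction). For 4 of the 5 the log2 fold change was positive, against 50% of all genes, and the median over the 5 was 0.01, against 0.00 over all genes tested. No subunit separated the groups, whereas 0.404% of all genes were higher and 0.512% lower in the cKO-labelled libraries with no overlap.

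Grik3 (ENSMUSG00000001985, chromosome 4, 125490700 to 125714173, plus strand, mm10) encodes GluK3, a subunit of presynaptic receptors with low glutamate sensitivity. Replicates 1 to 6 labelled cKO had 48.1, 32.4, 38.6, 31.2, 38.6 and 31.7 CPM, and WT replicates 1 to 5 had 37.3, 43.4, 42.3, 45.6 and 60.0 CPM. Replicates 2, 4 and 6 labelled cKO lay below every WT library, replicates 3 and 5 only above the lowest WT library, and replicate 1 only below WT replicate 5. The means were 36.8 ± 6.51 CPM in the cKO-labelled libraries and 45.7 ± 8.53 CPM in WT (SD over 6 and 5 libraries). The log2 fold change was -0.31 ± 0.14 (SE), a change of -19.5% with a 95% interval from -34.7% to -0.858%, and it did not pass the test over all genes (edgeR, unadjusted p = 0.0426, adjusted p = 0.522). A log2 fold change of this size or larger, in either direction, was found in 7.34% of the genes tested.

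Grik3 was lower in the mean of the cKO-labelled libraries under every alternative, with an edgeR, DESeq2 or limma adjusted p from 0.191 to 0.854. Without WT replicate 5, the highest library, its log2 fold change was -0.20 ± 0.11 (SE). With sex as a term it was -0.49 ± 0.17 and over the 8 male libraries -0.49 ± 0.17 (SE). Since all cKO-labelled libraries are male, both fits set them against WT replicates 2 and 5 alone, here and for every gene below. They are therefore nearly the same contrast and not separate checks. Without replicate 1 labelled cKO it was -0.40 ± 0.12 (SE; edgeR, adjusted p = 0.191). Its unadjusted p was at or over 0.05 under 11 of 21 alternatives and ran from 0.00506 without replicate 1 labelled cKO to 0.131 with a replicate block. The size of the difference therefore rests in part on single libraries.

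**Figure D2:**
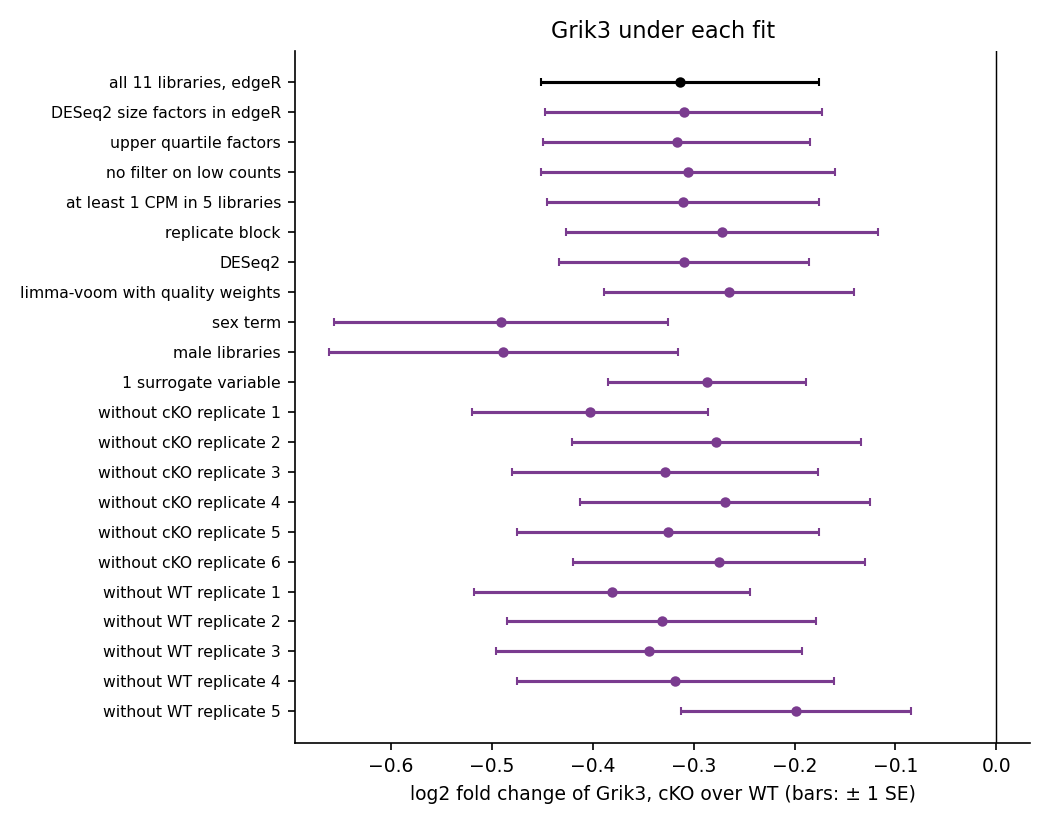
Log2 fold change of Grik3, cKO-labelled libraries over WT, with bars of 1 SE, for all 11 libraries by edgeR (black) and under each alternative. All values lie below 0, from -0.49 with a sex term to -0.20 without WT replicate 5.

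Markers of several cell types, dentate granule cells among them, and of neighbouring tissue are given here for the same libraries. The 5 astrocyte markers all had higher values in the cKO-labelled libraries and summed to 2584 to 5278 CPM there and 2354 to 3051 CPM in WT. The highest sums, 4317, 3309 and 5278 CPM, were those of replicates 2, 4 and 6 labelled cKO, which had the lowest Grik3. Gfap varied most, with 1608 ± 1062 CPM in the cKO-labelled libraries and 799 ± 271 CPM in WT (SD). Over the 11 libraries, Pearson's r of log2 CPM with Grik3 ran from -0.82 for Gfap to 0.19 for Slc1a3 among these 5 markers. Of the 8 thalamic markers 6 had lower values in the cKO-labelled libraries, and their sums were 72.0 to 87.0 CPM there and 81.5 to 102 CPM in WT. The 5 microglial markers all had higher values, with sums of 492.9 to 653.8 CPM in the cKO-labelled libraries and 483 to 528 CPM in WT. Their highest sums, 653.8, 580.3 and 571.1 CPM, were likewise those of replicates 2, 4 and 6 labelled cKO. All 5 meningeal markers, such as Igf2 and Slc13a4, had lower values, and their sums were 45.8 to 61.8 CPM in the cKO-labelled libraries and 54.9 to 89.7 CPM in WT. All 5 dentate granule cell markers had lower values, with overlapping sums of 164 to 261 CPM in the cKO-labelled libraries and 200.1 to 280.5 CPM in WT. Their Pearson's r with Grik3 went both ways, from -0.44 for Lct to 0.63 for Tdo2. At an unadjusted p under 0.05 edgeR had 5 of 5 meningeal, 4 of 8 thalamic and 1 of 5 dentate markers lower, where 5.35% of all genes were, and 4 of 5 microglial and 2 of 5 astrocyte markers higher, where 3.84% were. DESeq2 called 4 meningeal and 2 thalamic markers, where it called 0.193% of all genes lower, and 0 markers of the other lists named here. None of these lists had a gene past edgeR's adjusted threshold, no marker in them was at 0 throughout, and their part in the values of Grik3 was not tested.

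Grik1 (ENSMUSG00000022935, chromosome 16, 87895900 to 88290265, minus strand), which encodes GluK1, the subunit typical of interneurons, was the least abundant per length. Replicates 1 to 6 labelled cKO had 12.2, 8.63, 12.6, 10.01, 10.9 and 8.28 CPM, and WT replicates 1 to 5 had 10.6, 9.77, 9.33, 9.14 and 13.0 CPM. The groups overlapped over almost their whole range, from 232 to 420 reads per cKO-labelled library and 287 to 400 per WT library. Its difference was 0.01 ± 0.12 on the log2 scale (SE; edgeR, adjusted p = 0.991), with an interval from -15.6% to 19.9%. Its sign turned with a sex term (-0.13 ± 0.16, SE) and over the male libraries (-0.12 ± 0.16, SE), which give nearly the same contrast. The 8 interneuron markers, such as Gad1 and Sst, summed to 667 to 901 CPM in the cKO-labelled libraries and 717 to 794 CPM in WT, 5 of them with higher and 3 with lower values.

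Grik2 (ENSMUSG00000056073, chromosome 10, 49094833 to 49788766, minus strand) encodes GluK2, the main channel-forming subunit at mossy fibre synapses. It had 48.8, 47.7, 48.2, 46.1, 53.1 and 48.8 CPM in replicates 1 to 6 labelled cKO and 47.6, 49.0, 50.9, 48.7 and 45.1 CPM in WT replicates 1 to 5. The libraries lay close together and the groups overlapped, with a log2 fold change of 0.01 ± 0.05 (SE; edgeR, adjusted p = 0.956) and an interval from -5.69% to 8.21%. Its sign turned without replicate 5 labelled cKO and without WT replicate 5 (-0.01 on the log2 scale in the second case). Grik5 (ENSMUSG00000003378, chromosome 7, 25009849 to 25072346, minus strand), which encodes the partner subunit GluK5, was as steady. Its replicates 1 to 6 labelled cKO had 279, 287, 263, 286, 255 and 284 CPM, and WT replicates 1 to 5 had 285, 268, 257, 268 and 277 CPM. The log2 fold change of Grik5 was 0.03 ± 0.05 (SE; edgeR, adjusted p = 0.907), with an interval from -4.78% to 8.75%.

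Grik4 (ENSMUSG00000032017, chromosome 9, 42518135 to 42944493, minus strand) encodes GluK4, a subunit concentrated in CA3 pyramidal cells. It had 62.6, 65.5, 66.7, 80.0, 67.8 and 60.2 CPM in replicates 1 to 6 labelled cKO and 68.9, 54.9, 64.5, 70.0 and 59.9 CPM in WT replicates 1 to 5. Replicate 4 labelled cKO was the highest library and the male WT replicates 2 and 5 the lowest, below all 6 cKO-labelled libraries, while the female WT libraries lay among them. The log2 fold change was 0.08 ± 0.07 over all libraries (SE; edgeR, adjusted p = 0.797), with an interval from -5.37% to 17.6%. With a sex term it was 0.23 ± 0.09 and over the male libraries 0.23 ± 0.09 (SE; edgeR, adjusted p = 0.701 and adjusted p = 0.854), whereas it was 0.02 without replicate 4 labelled cKO and 0.03 without WT replicate 2. The 5 other CA3 markers summed to 666 to 869 CPM in the cKO-labelled libraries and 670 to 748 CPM in WT, and replicate 4 labelled cKO had the highest sum, 869 CPM. Dkk3 was the largest part of these sums, with means of 471 and 453 CPM. The markers did not go one way, since 3 had higher and 2 lower values in the cKO-labelled libraries. Coch was lower, with 3.27 ± 0.52 CPM there and 5.11 ± 1.40 CPM in WT (SD; edgeR, unadjusted p = 0.00133, adjusted p = 0.349). The part of these markers in the values of Grik4 was not tested.

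**Figure D3:**
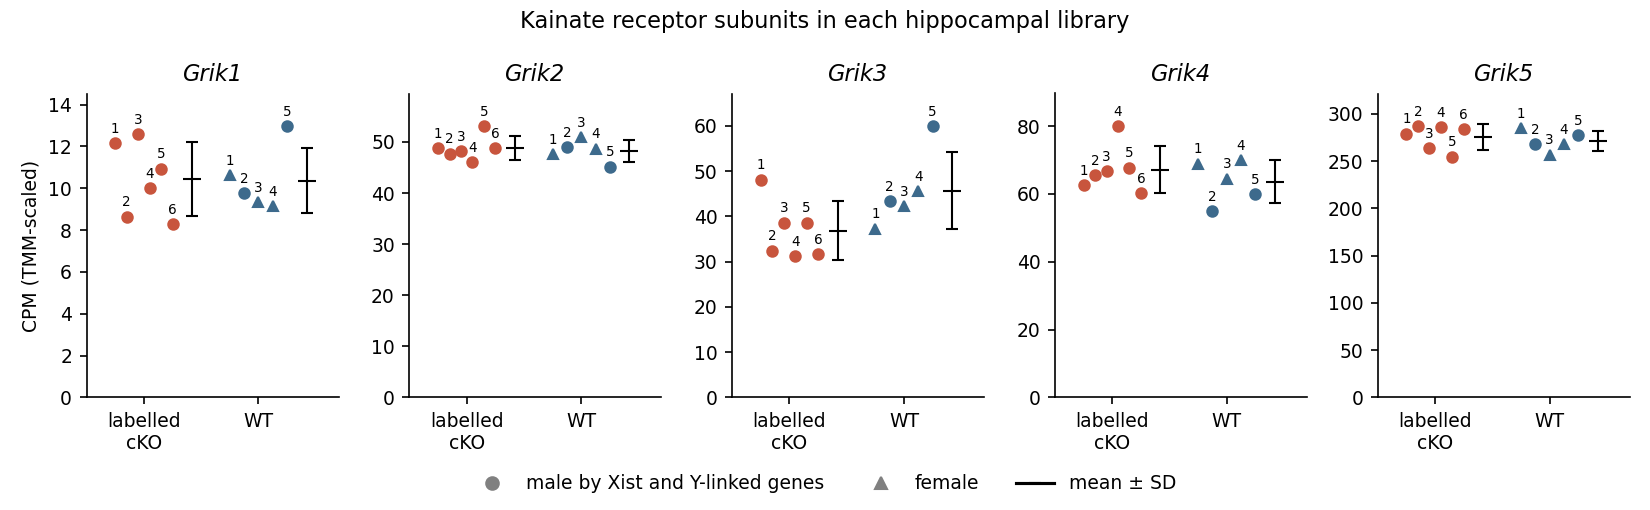
CPM of each kainate receptor subunit in each library, with the replicate number above each point and mean ± SD at the right of each group (n = 6 labelled cKO and 5 WT); circles are male and triangles female libraries, and every axis starts at 0. The groups overlap for each subunit, and Grik3 has means of 36.8 CPM in the cKO-labelled libraries and 45.7 CPM in WT.

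The subunits differed in how much they varied among libraries of a group. The within-group SD of log2 CPM was 0.07 for Grik5 and 0.07 for Grik2, below those of all but 9.78% and 10.5% of the genes tested. It was 0.14 for Grik4, 0.23 for Grik1 and 0.25 for Grik3, against a median of 0.13 over all genes. Grik3 and Grik1 thus stood above 75.9% and 73.7% of the genes by this measure, which includes counting error.

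Among the 10 pairs of subunits, 2 had an unadjusted permutation p under 0.05 for the correlation of log2 CPM over the 11 libraries, and none passed over all 11 libraries after Benjamini-Hochberg adjustment over the 10 pairs. Grik2 and Grik5 ran opposite to each other, with Pearson's r = -0.73 (permutation p = 0.00759, adjusted p = 0.0759) and Spearman's rho = -0.66 (permutation p = 0.0342, adjusted p = 0.342). The coefficient was -0.73 without replicate 5 labelled cKO and WT replicate 5, the libraries farthest from the median of Grik2, -0.78 within the 6 cKO-labelled libraries and -0.69 within the 8 male ones. Without WT replicate 5 alone it was -0.80, with an adjusted permutation p of 0.0128, and without replicate 5 labelled cKO alone it was -0.60, with an adjusted permutation p of 0.35. These genes also lie apart in base composition, since the transcript used for the sequence of Grik2 is 37.9% G and C and that of Grik5 62.3%, and the part of base composition in their relation was not tested. Grik1 and Grik3 ran together, with r = 0.61 (permutation p = 0.0477, adjusted p = 0.238) and rho = 0.47 (permutation p = 0.146, adjusted p = 0.455). Without WT replicate 5 and replicate 3 labelled cKO r was 0.50, within the cKO-labelled libraries 0.80 and within the male libraries 0.76. Without WT replicate 5 alone it was 0.42, with an unadjusted permutation p of 0.228. WT replicate 5 and replicate 1 labelled cKO were high in both genes, and replicates 2 and 6 labelled cKO were low in both.

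**Figure D4:**
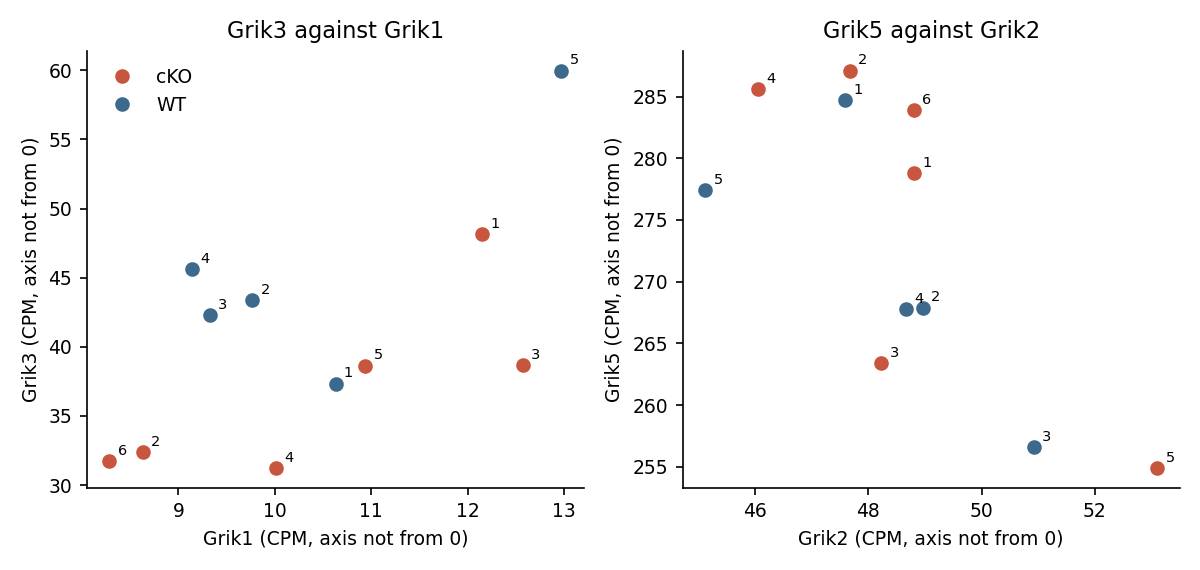
CPM of Grik3 against Grik1 (left) and of Grik5 against Grik2 (right), with 1 point per library and its replicate number; axes do not start at 0. WT replicate 5 is highest in Grik1 and Grik3, at 13.0 and 60.0 CPM, and replicate 5 labelled cKO is highest in Grik2 and lowest in Grik5, at 53.1 and 255 CPM.

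The genes whose log2 CPM followed each subunit most closely over the 11 libraries were picked as the 3 highest Pearson coefficients among 16582 genes, so these values are a description of likeness. For Grik3 they were Safb2, a nuclear matrix protein (r = 0.97), the noncoding transcript 4933439C10Rik (0.96) and Kirrel2, an adhesion molecule of the immunoglobulin family (0.95). For Grik1 they were Pgap1, an enzyme of GPI anchors (0.97), Arhgap32 (0.96) and Nxph3, a neurexin ligand (0.95). Grik4 was followed by Pcsk5, a proprotein convertase (0.94), Tmeff2 (0.93) and Coq8a, a gene of coenzyme Q synthesis (0.89). Grik2 was followed by Dhx36, a helicase (0.89), Pde5a, a phosphodiesterase of cyclic GMP (0.89), and Slc30a5, a zinc transporter (0.89). Grik5 was followed by Micall1 (0.91), Zfp703 (0.87) and Pip5k1c, a phosphoinositide kinase of nerve terminals (0.87). Without the 2 libraries farthest from the subunit's median, these 15 coefficients were from 0.68 (Slc30a5 with Grik2) to 0.98 (Kirrel2 with Grik3).

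Neto1 and Neto2 encode the auxiliary proteins. Neto2 had 44.6, 36.9, 38.3, 35.8, 39.6 and 35.1 CPM in replicates 1 to 6 labelled cKO and 33.2, 36.3, 33.4, 28.3 and 36.8 CPM in WT replicates 1 to 5. The cKO-labelled libraries lay at the upper end, but 2 WT libraries, the male replicates 2 and 5, fell within their range. The means were 38.4 ± 3.45 CPM in the cKO-labelled libraries and 33.6 ± 3.42 CPM in WT (SD over 6 and 5 libraries), a log2 fold change of 0.19 ± 0.07 (SE; edgeR, unadjusted p = 0.0173, adjusted p = 0.457). With a sex term the value was 0.07 ± 0.09 and over the male libraries 0.07 ± 0.09 (SE), both against WT replicates 2 and 5 alone. Neto1 averaged 87.6 ± 7.72 CPM in the cKO-labelled libraries and 88.7 ± 5.41 CPM in WT, a log2 fold change of -0.02 ± 0.06 (SE; edgeR, adjusted p = 0.958). Its sign turned with a sex term (0.06 ± 0.08, SE).

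The list of genes associated with kainate receptors held the Neto genes, scaffolds, trafficking and degradation partners, synaptic organizers and the editing enzymes. Of its 25 genes 24 were tested and 0 passed edgeR's adjusted threshold. By the unadjusted mark 3 were higher and 1 was lower, 16.7% of the list against 9.19% of all genes tested. With a sex term none of these 4 genes had an unadjusted p under 0.05 (edgeR, 0.0501 to 0.459). That fit rests on the 2 male WT libraries and had larger SEs. Its log2 fold change was 0.07 for Neto2, 0.15 for Cdh2, 0.09 for Klhl24 and -0.13 for Pick1, so only Neto2 moved far. Over the male libraries Cdh2 had an unadjusted p of 0.0479 (edgeR, adjusted p = 0.854). The log2 fold change was positive for 17 and negative for 7, with a median of 0.03 against 0.00 over all genes. Besides Neto2, the higher ones were Cdh2, which encodes N-cadherin (0.12 ± 0.05), and Klhl24, which binds GluK2 (0.10 ± 0.05; log2 ± SE; edgeR, adjusted p = 0.501 and adjusted p = 0.516). The lower one was Pick1, a PDZ-domain protein that binds AMPA and kainate receptor subunits, with 40.1 ± 1.78 CPM in the cKO-labelled libraries and 43.5 ± 3.19 CPM in WT (log2 fold change -0.11 ± 0.05, SE; edgeR, adjusted p = 0.53). Adarb1, the enzyme that edits the Q/R site, averaged 219 ± 11.8 CPM in the cKO-labelled libraries and 227 ± 2.48 CPM in WT, a log2 fold change of -0.05 ± 0.04 (SE; edgeR, adjusted p = 0.754). C1ql2, a mossy fibre protein that recruits kainate receptors, varied far more, with 130.1 ± 30.0 CPM in the cKO-labelled libraries and 114 ± 24.7 CPM in WT (log2 fold change 0.19 ± 0.20, SE; edgeR, adjusted p = 0.822). Adarb1 and C1ql2 were chosen after their values were seen.

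**Figure D5:**
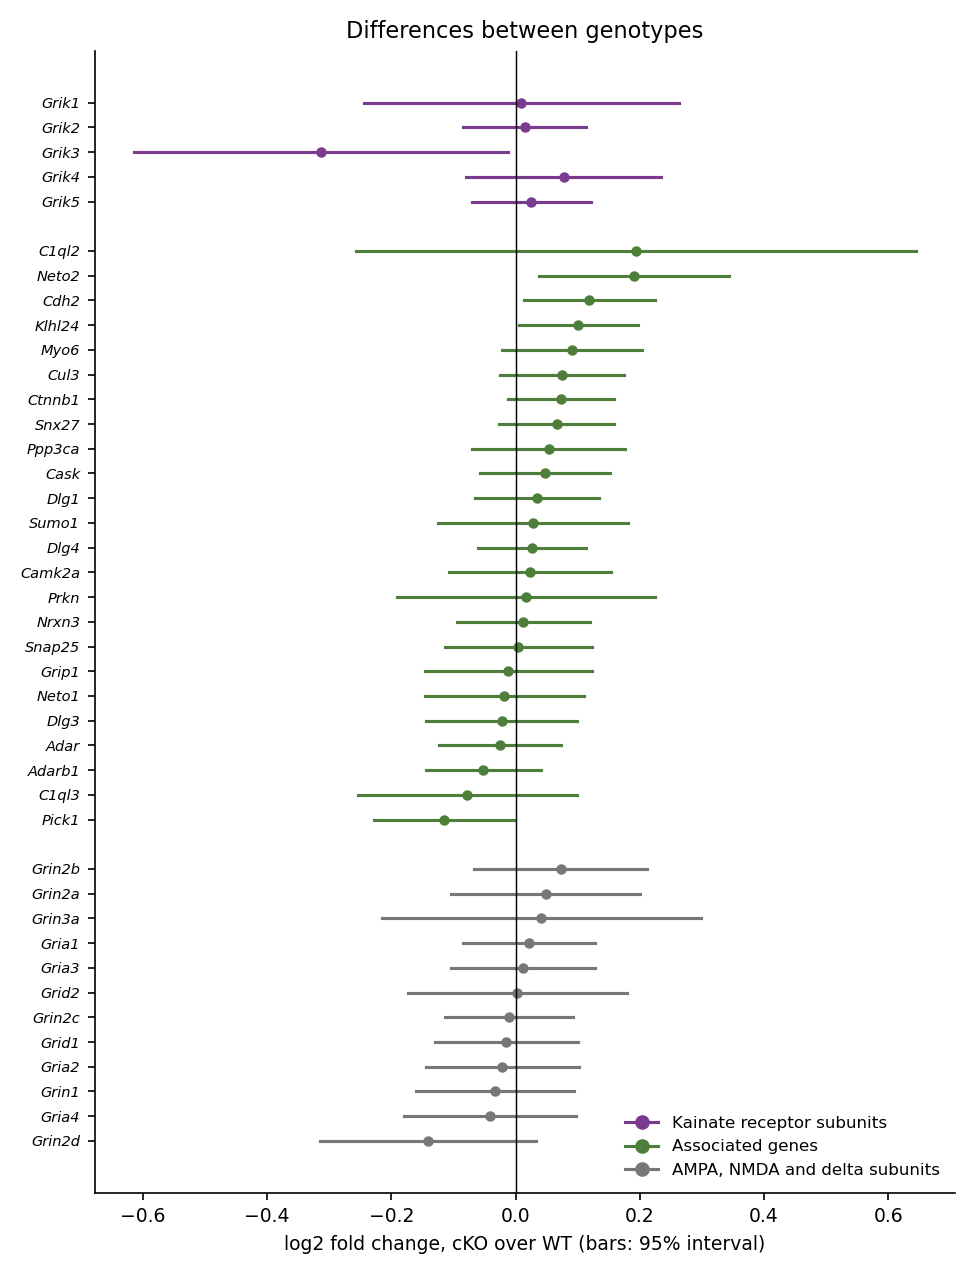
Log2 fold changes, cKO-labelled libraries over WT, with 95% intervals, for the kainate receptor subunits, the associated genes and the other ionotropic glutamate receptor subunits. The interval of Grik3 (-0.31) ends just below 0, and those of the other 4 subunits cross it.

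The AMPA, NMDA and delta receptor subunits gave the nearest comparison. Of 13 such genes 12 were tested, and 0 passed the adjusted threshold or had an unadjusted p under 0.05 by edgeR. Their log2 fold changes were positive for 6 and negative for 6, with a median of 0.00. Among them Grin2d, an NMDA receptor subunit of interneurons, had the smallest p, at 14.0 ± 1.78 CPM in the cKO-labelled libraries and 15.4 ± 0.868 CPM in WT (log2 fold change -0.14 ± 0.08, SE; edgeR, adjusted p = 0.617). That gene was chosen after its values were seen. Whether Grik3 differed from its relatives in its response was not tested.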

How the data were processed

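Per the labels' protocols, libraries of polyadenylated RNA from 1 hippocampus each were made with a kit that marks strand. bcl2fastq 2.17.1.14 and the build mm10 are named in the submitters' processing notes. For the aligner, counting tool, annotation and use of strand, nothing is stated in the sources used here. The authors deposited raw counts per gene, which are whole numbers with no normalization. Symbols, positions and sequences come from GENCODE M21 (mm10), which matched 30566 of 30681 genes, and Klhl17 of the associated list is not analysed here.

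Groups come from the sample titles (6 cKO, 5 WT). Genes were filtered with filterByExpr, scaled by TMM factors and tested by edgeR's quasi-likelihood F test (2-sided, robust) with Benjamini-Hochberg adjustment over 16587 genes and a threshold of 0.05. CPM values were computed here on the TMM-scaled totals, and log2 CPM used a prior count of 2. Each standard error is the absolute log2 fold change divided by the square root of F, and intervals cover 95%. Correlations used 100000 permutations. Sex was called from Xist alone (female over 100 CPM), and the sum of the Y-linked genes was set beside the call. No replicate pair came closer than a chi-square of 5.31 per degree of freedom, so all libraries were kept apart. The subunits, gene lists and tests were chosen with earlier results of these data known. Named were the 5 subunits, Neto1, Neto2, up to 4 genes of each list with an unadjusted p under 0.05, the 3 genes nearest to each subunit, and Dclk3. The fit was tested on simulated data, drawn with the typical spread at each gene's level and not the gene's own. It recovered 44.9% of genes changed 1.25-fold, 81.6% at 1.5-fold and 93.8% at 2-fold. Of 16429 unchanged genes it called 5. Changes of about 1.25-fold were thus often missed. Versions were edgeR 4.0.16, DESeq2 1.42.0, limma 3.58.1 and sva 3.50.0 under R 4.3.3. Alternatives were other scaling factors and filters, DESeq2, limma-voom with quality weights, a sex term, the male libraries, 1 surrogate variable, a replicate block and each library left out. The sex term and the male libraries both contrast the cKO-labelled libraries with the male WT libraries only.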

Additional observations from a re-analysis of the deposited data

How the results depend on the processing

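No subunit passed an adjusted threshold under any alternative. The number of genes called was 3 with no filter on low counts, 62 by DESeq2, 2 with 1 surrogate variable and 0 to 14 with each library left out (14 without WT replicate 5, 2 without WT replicate 2 and 1 without WT replicate 1), against 0 over all 11 libraries. Grik3, Grik4 and Grik5 kept their sign under all of them, with each library left out from -0.40 to -0.20, from 0.02 to 0.11 and from 0.00 to 0.05 (log2). Grik1 turned to -0.13 with a sex term and -0.12 over the male libraries, and ran from -0.053 to 0.10 with each library left out. Grik2 ran from -0.010 to 0.032 and Neto1 from -0.044 to 0.021 with each library left out. Neto1 turned to 0.058 with a sex term and 0.060 over the male libraries. Per kilobase of the longest transcript Grik1 averaged 2.85, Grik2 5.15 and Grik5 67.3 CPM. Centred within each group, an alternative added after the data were seen, the correlation of Grik1 and Grik3 was 0.74 (permutation p adjusted over 10 pairs 0.0421) and that of Grik2 and Grik5 -0.78 (0.0373). The permutation moved the centred values freely across both groups and took no account of the group means removed. These p-values may therefore be too small. With each library left out, and without centring, the 2 correlations ran from 0.42 to 0.71 and from -0.80 to -0.60.

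The sample titles do not say whether same-numbered libraries belong together. Deviations of same-numbered libraries correlated from -0.32 to 0.21, and 1 of the 5 correlated best with its own number. With so few pairs this check cannot tell whether the numbers mark a batch. With the replicate number as a block edgeR called 0 genes, Grik3 was at -0.27 and Neto1 at 0.021 (log2). Grik1 had the fewest reads of the subunits, 232 to 420 a library.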
